A study of Homo sapiens with 15 samples.

Results

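The genes described here are the cytokines, chemokines, interleukin and Toll-like receptors, TRAF and IRAK signalling proteins and NF-κB subunits measured in Caco-2 cells, a line from a human colon carcinoma that is widely used as a model of the absorptive intestinal lining. They were chosen by name, by a rule that uses no measured values, though with earlier results of these data known. A gene was a member if its platform symbol began with IL and a digit, CXCL, CCL and a digit, TNF, TRAF and a digit, NFKB, REL, IRAK, or TLR and a digit, with CCL20, CXCL8 and TLR4 left out. Where a symbol had several rows, the row with the highest mean over all arrays was taken. The rule found 119 of the 14884 symbols named on the array: 62 ligands, 30 receptors, 10 adaptors and kinases, 6 NF-κB genes, 3 decoys or antagonists, 7 noncoding transcripts named after a neighbouring gene, and IL4I1, an amino acid oxidase. Roles were set by symbol, so the adaptors and kinases include TRAF3IP1, TRAF3IP3 and IRAK1BP1, named as partners of TRAF3 or IRAK1. Likewise the 6 NF-κB genes include NFKBIL1, which is not a subunit gene, beside NFKB1, NFKB2, REL, RELA and RELB. Of 45 genes picked by name for description, 22 had a row named here and 23 were not analysed here. The 23 include NFKBIA, NFKBIB, NFKBIE, NFKBIZ, TNFAIP3, IL1A, IL1B, IL6 and CXCL1. They also include IRAK4, TRAF2, TRAF6, IL1R1 and TNFRSF1A. No gene of a TNF receptor is among the members under a TNFRSF symbol. The counts below therefore do not cover any of these genes.

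Expression was measured on 15 arrays, 5 in each of 3 groups. The LPS+RSV cells received 50 µM trans-resveratrol, a plant polyphenol dissolved in ethanol, for 1 h and were then exposed to lipopolysaccharide (LPS, an endotoxin of the outer bacterial membrane) from E. coli K12 at 1 µg/mL for 48 h. The LPS cells had the endotoxin alone, and the control cells were untreated. All cells were used 15 to 19 days after seeding, and the labels do not say whether the LPS or control cells were given ethanol. They are also silent on whether replicates were separate cultures, and a p-value therefore sets a difference only against the spread of the arrays deposited, part of which may be technical.

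Values are log2 expression after RMA normalization, and a log2 difference of 1 is a doubling. A gene was tested where it exceeded the 40th percentile of the array on 5 or more of the 15 arrays. This kept 11804 symbols and 73 members: 36 ligands, 15 receptors, 9 adaptors and kinases, 6 NF-κB genes, 2 antagonists, 4 noncoding transcripts and IL4I1. Of the 119 members, 61 lay above that level on all 15 arrays and 44 on none. CCL15-CCL14, IL20, IL36RN and IL37 passed with 5 arrays each, and CCL23 missed with 3. Array medians ranged from 5.49 to 5.54. LPS replicates 1 and 2 and LPS+RSV replicate 1 had stood apart from the other arrays in earlier results of these data, and differences that moved most without them are given both ways below. Of markers of the intestinal epithelium, the lowest percentile on any array was 98.3 for VIL1, 99.1 for EPCAM, 99.1 for SI and 92.1 for CDX2. It was 89.9 for APOA1, 81.7 for ANPEP, 67.8 for KRT8 and 46 for KRT20. The leukocyte gene CD53 lay between percentiles 20.5 and 30.6, while CD68, a lysosomal protein also used as a macrophage marker, had a lowest percentile of 98.8. Of the other leukocyte genes, LCP2 lay between 37 and 48.4 and CD2 between 50.3 and 57.8. CSF1R lay between 63.1 and 77.2 and NKG7 between 65.5 and 75, which overlaps the range of KRT8. In whole cultures, fewer cells that express a gene and less RNA of it per cell cannot be told apart.

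Cytokines and chemokines are secreted proteins that act through receptors on neighbouring cells. Toll-like receptors and the receptors of the interleukin-1 family recruit IRAK kinases, TNF receptors recruit TRAF adaptors, and both routes end in the release of NF-κB dimers, built from the REL and NFKB proteins, into the nucleus. There NF-κB binds short κB sites in the promoters of many chemokine genes and of its own subunits. Differentiated enterocytes are known to respond sparingly to endotoxin compared with macrophages.

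Promoter stretches with a match to the κB consensus on the gene strand are shown for 8 members whose expression is described below: chemokines, NF-κB subunits, and signalling genes or cytokines on which later results turn. The windows, from RefSeq on GRCh38.p14, ran from 250 bases before to 50 bases after the start of each gene, and the consensus was searched on both strands. Capitals mark the match, and the lines give it with its flanks, 5′ to 3′ on the gene strand, for 30 bases each.
CXCL2 (chr4:74099254-74099283, minus strand): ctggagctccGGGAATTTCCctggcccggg
CXCL3 (chr4:74038749-74038778, minus strand): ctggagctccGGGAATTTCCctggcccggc
CXCL5 (chr4:73998749-73998778, minus strand): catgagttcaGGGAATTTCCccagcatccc
NFKB1 (chr4:102501300-102501329, plus strand): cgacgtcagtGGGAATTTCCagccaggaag
REL (chr2:60881517-60881546, plus strand): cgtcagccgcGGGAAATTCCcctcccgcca
TRAF3 (chr14:102777406-102777435, plus strand): cgggcgcgccGGGGATTTCCagcgcgcgag
IL32 (chr16:3065294-3065323, plus strand): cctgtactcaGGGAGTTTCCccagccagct
IRAK1 (chrX:154019997-154020026, minus strand): tccccggcgcGGGGCGCCCCcgtgtgaccc

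CXCL2, CXCL3, CXCL5 and NFKB1 carried the same 10 letters, which began 78, 79, 91 and 49 bases before the start. Those of CXCL2, CXCL3 and CXCL5, and the matches of REL and IL32, also fit the consensus on the opposite strand when moved by 1 base. Windows were given for 90 members, and 19 of them (21.1%) held a match, against 1329 of 10749 windows of genes on the array (12.4%) and 2962 of 27305 windows of all genes (10.8%). By role, 11 of 43 ligand windows (25.6%), 3 of 24 receptor windows (12.5%), 2 of 10 adaptor and kinase windows (20%) and 2 of 5 NF-κB windows (40%) held one. A match is a run of letters and no evidence of binding.

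The comparison of LPS with control asked what endotoxin does to these genes after 48 h. None of the 73 tested members passed an adjusted p of 0.05 in limma, where 0.0254% of all 11804 genes did, and the lowest adjusted p of a member was 0.302. At an unadjusted p under 0.05, 5 members were higher in LPS and 0 were lower: TRAF3, TRAF4, IRAK1, CXCL16 and IL4R. This is 6.85% of the members tested, and 7.88% of all genes had such a p (4.62% higher and 3.26% lower). Without LPS replicates 1 and 2, TRAF3 and TRAF4 kept such a p, while IRAK1, CXCL16 and IL4R did not. With others that entered, 4 members had one, beside 5.77% of all genes. The 95% interval of the difference lay within 1 log2 unit of 0 for all 73 tested members (98.5% of all genes) and within 0.5 for 64 of them, or 87.7% (88.1% of all genes).

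Resveratrol was compared in cells that all had LPS. Here too 0 of 73 members passed in limma, against 0.0424% of all genes, with a lowest adjusted p of 0.173 for TRAF3. The members at an unadjusted p under 0.05 were 3: IL17RE, higher in LPS+RSV, and TRAF3 and IL17RB, lower. That is 4.11% of members beside 18.6% of all genes (8.08% higher and 10.5% lower). Without LPS replicates 1 and 2 only IL17RE of the 3 kept such a p, and without LPS+RSV replicate 1 IL17RE and TRAF3 did. Other members entered, so that 4 had such a p in each case, beside 13.2% and 14% of all genes. Intervals lay within 0.5 log2 units of 0 for 68 members (93.2%, against 81.5% of all genes) and within 1 for 72, with CCL2 the exception (97.2% of all genes).

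LPS+RSV was also set against untreated control cells. No member and none of the 11804 genes (0%) passed in limma, and the lowest adjusted p of a member was 0.464. At an unadjusted p under 0.05, CXCL12, RELA and IL21R-AS1 were higher and REL was lower, 4 members or 5.48%, against 10.5% of all genes (4.09% higher and 6.4% lower). Without LPS+RSV replicate 1, CXCL12 and IL21R-AS1 kept such a p and RELA and REL did not, beside 5.33% of all genes. Intervals lay within 0.5 log2 units for 64 of 73 members (87.7%, against 84.3% of all genes) and within 1 for all 73 (98.4% of all genes).

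In no comparison did the 5 arrays of 1 group all lie beyond the 5 of the other for any of the 119 members, where 2.21% of tested genes separated in this way between LPS and control, 2.8% between LPS+RSV and LPS, and 1.72% between LPS+RSV and control. The median size of the difference over tested members was 0.07 for LPS against control, 0.08 for LPS+RSV against LPS and 0.08 for LPS+RSV against control. Over all genes these medians were 0.08, 0.11 and 0.10. The 3 comparisons share arrays with each other, so their values stand side by side below and are not independent.

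**Figure D1:**
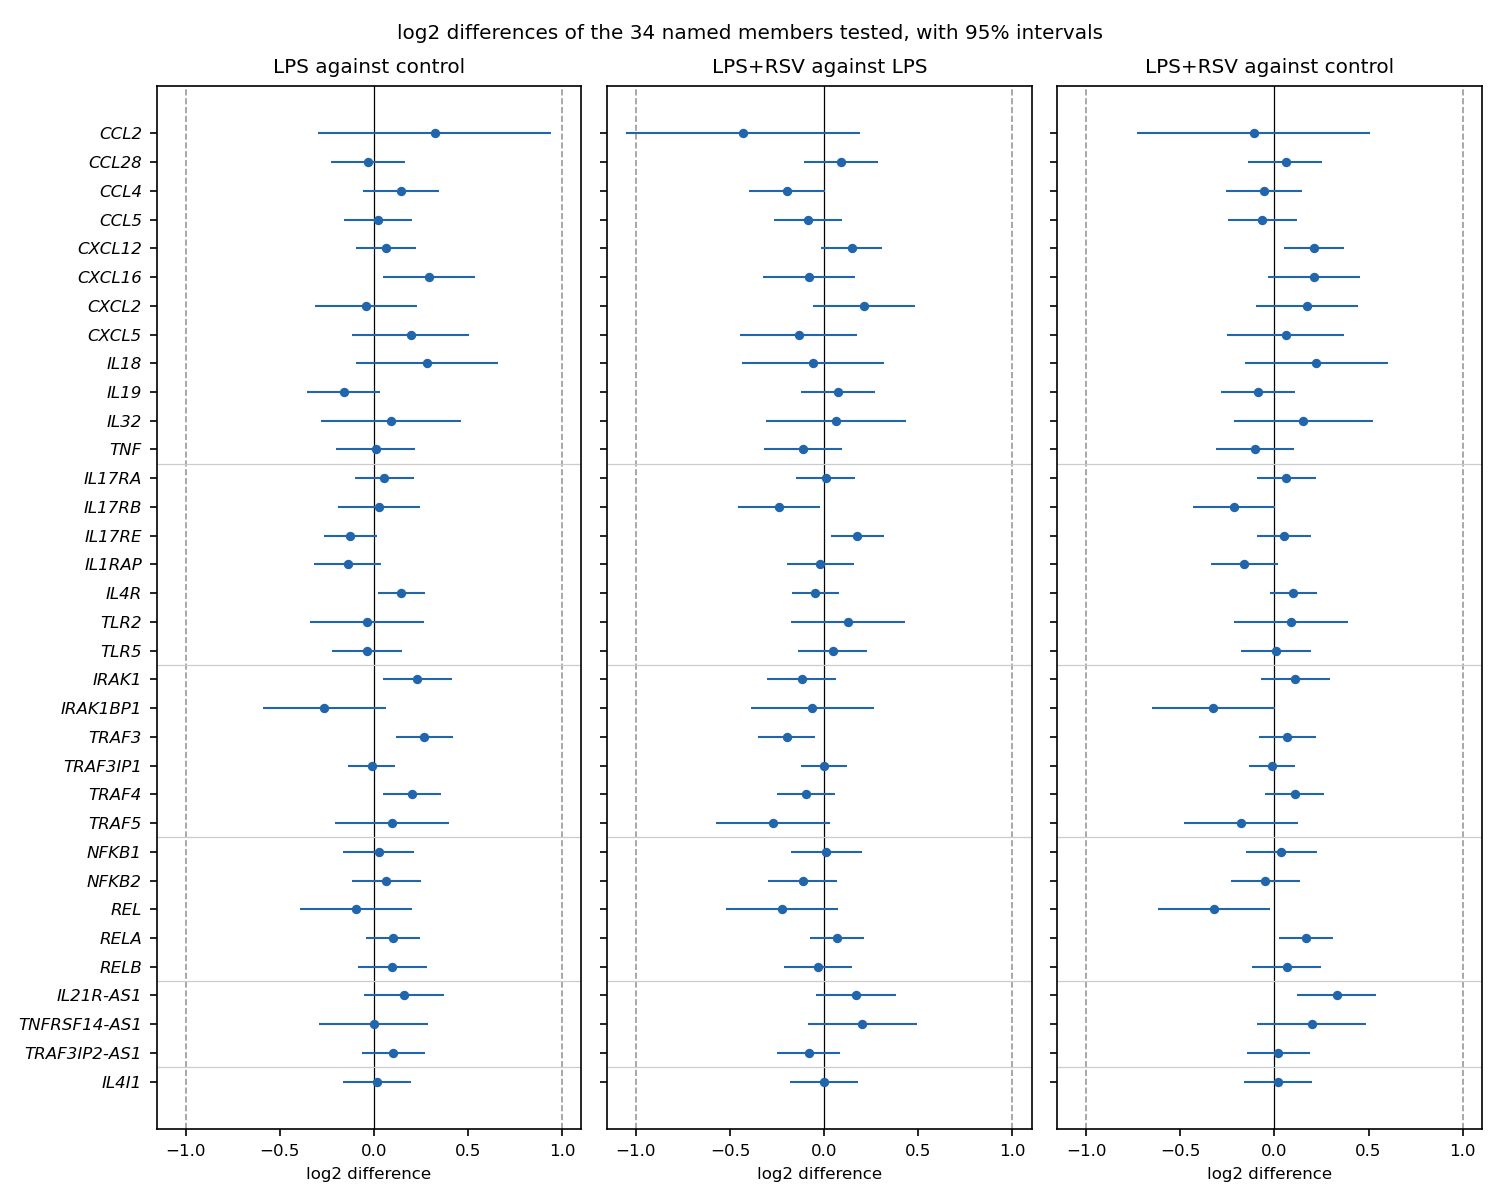
log2 difference of each of the 34 described members that were tested, with its 95% interval from limma, in the 3 comparisons (5 arrays per group). Dashed lines mark 1 log2 unit on either side of 0; only the interval of CCL2 in LPS+RSV against LPS, from -1.05 to 0.19, crosses one.

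CXCL16 was the ligand with the lowest p for LPS against control. It is a chemokine made as a membrane-bound protein that attracts T cells through CXCR6. Its log2 expression was 8.56, 8.41, 8.29, 8.01 and 8.17 on the LPS arrays, against 7.71, 7.92, 8.11, 8.21 and 8.03 on the control arrays. The 3 highest LPS arrays lay above every control array, and the other 2 lay within the control range. The log2 difference was 0.29 ± 0.12 (SE, adjusted p = 0.560, limma, n = 5 each) and 0.16 without LPS replicates 1 and 2. Over all alternatives tried it ranged from 0.16 to 0.41, with a lowest adjusted p of 0.0850 in limma. With resveratrol, CXCL16 had 8.49, 8.04, 8.21, 8.14 and 8.13, a difference of -0.08 ± 0.12 from LPS that was 0.05 without the same LPS arrays.

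TNF, the founding cytokine of its family, was measured above the filter on all arrays. Its values were 6.42, 6.43, 6.44, 6.65 and 6.48 on the LPS arrays, against 6.65, 6.62, 6.37, 6.18 and 6.54 on the control arrays. The LPS values all lay inside the control range. The difference was 0.01, with an interval of -0.20 to 0.22. The LPS+RSV arrays had 6.16, 6.45, 6.39, 6.27 and 6.59, a difference from LPS of -0.11 with an interval of -0.32 to 0.10, and of -0.06 without LPS+RSV replicate 1. The platform listed 8 rows for TNF with 2 distinct sets of values, and the dimmer set gave -0.01 for LPS against control and -0.12 for LPS+RSV against LPS.

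CXCL2, CXCL3 and CXCL5 draw neutrophils through CXCR2 and carry the shared κB match shown above. CXCL2 had 6.82, 6.90, 6.83, 7.20 and 6.88 on the LPS+RSV arrays, against 6.46, 6.57, 6.70, 6.81 and 7.02 on the LPS arrays. Replicate 4 of LPS+RSV was the highest of these, and LPS replicate 5 lay above the other 4 LPS+RSV arrays. The difference was 0.21 ± 0.13 (SE, adjusted p = 0.384, limma), and that between LPS and control was -0.04 ± 0.13. Without LPS replicates 1 and 2 these were 0.08 and 0.09. CXCL5 differed by 0.20 ± 0.15 between LPS and control and by -0.14 ± 0.15 between LPS+RSV and LPS. Without those arrays CXCL5 differed by 0.07 and -0.01, and with the cell cycle score described below as a covariate by 0.05 and 0.05. CXCL3 lay below the filter on all arrays and was not tested; its means were 4.64 in LPS+RSV, 4.45 in LPS and 4.53 in control. CXCL2 and CXCL3 are close paralogs, so probes may not separate them fully.

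CCL2, which attracts monocytes, varied more between arrays than any other tested member, over 1.61 log2 units. It had 5.04, 6.12, 5.86, 5.09 and 4.50 on the LPS+RSV arrays, 5.60, 6.05, 5.22, 5.81 and 6.09 on the LPS arrays, and 5.92, 5.75, 5.69, 5.12 and 4.67 on the control arrays. Low and high arrays occurred in each group. The difference was -0.43 between LPS+RSV and LPS, with an interval of -1.05 to 0.19, and 0.32 between LPS and control, with an interval of -0.30 to 0.94. CCL4, an attractant of T cells and monocytes whose probes may also read its close paralogs, differed by -0.20 ± 0.10 between LPS+RSV and LPS (adjusted p = 0.283, limma).

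CXCL12, the ligand of CXCR4, had 5.73, 5.75, 5.52, 5.61 and 5.65 on the LPS+RSV arrays, against 5.26, 5.53, 5.38, 5.65 and 5.39 on the control arrays. The groups overlapped through control replicates 2 and 4. The difference was 0.21 ± 0.08 (SE, adjusted p = 0.464, limma). CCL28, a chemokine of mucosal epithelia, differed by 0.09 ± 0.09 between LPS+RSV and LPS and by -0.03 ± 0.09 between LPS and control. IL18, an epithelial cytokine released by inflammasomes, differed by 0.28 ± 0.18 between LPS and control. Its control arrays spread from 6.76 to 7.83, which encloses all 5 LPS arrays except the highest, at 7.86. IL19, a relative of interleukin-10, differed by -0.16 ± 0.09 between LPS and control, and CCL5, a T cell chemokine, by 0.02 ± 0.09. IL33 and CXCL10, an alarmin and an interferon-induced chemokine, lay below the filter on all 15 arrays. IL33 averaged 3.31 in LPS+RSV, 3.30 in LPS and 3.17 in control, and CXCL10 averaged 3.72 in LPS+RSV, 3.69 in LPS and 3.77 in control.

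**Figure D2:**
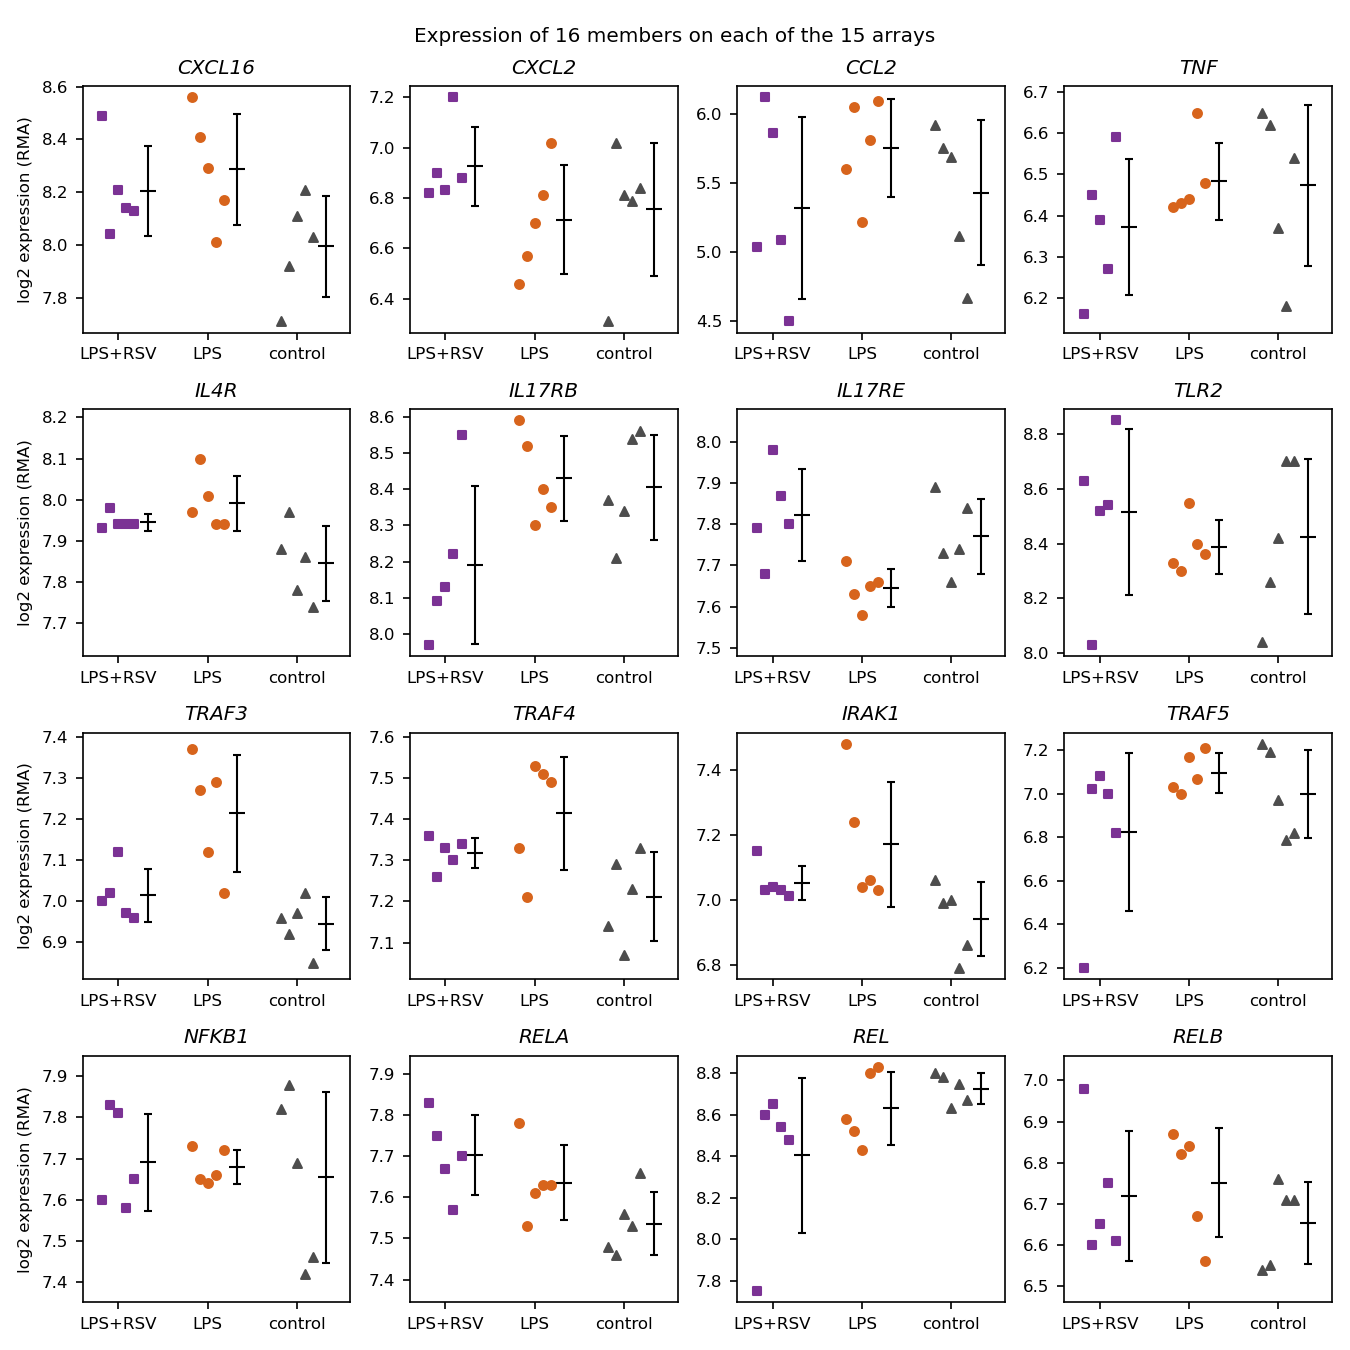
log2 expression of 16 members on each of the 15 arrays, with group mean and SD (n = 5), LPS+RSV on the left, LPS in the middle and control on the right; each panel has its own axis. In every panel the groups overlap, and the REL and TRAF5 panels show LPS+RSV replicate 1 below all other arrays, at 7.75 and 6.20.

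Of the receptors, IL4R, a chain shared by the receptors of interleukin-4 and interleukin-13, had the lowest p for LPS against control. Its values were 7.97, 8.10, 8.01, 7.94 and 7.94 on the LPS arrays, against 7.88, 7.97, 7.78, 7.86 and 7.74 on the control arrays. All LPS arrays lay above every control array but replicate 2. The difference was 0.15 ± 0.06 (SE, adjusted p = 0.568, limma), and that between LPS+RSV and LPS was -0.05 ± 0.06. They were 0.12 and -0.02 without LPS replicates 1 and 2.

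For LPS+RSV against LPS 2 of 15 tested receptors (13.3%) had an unadjusted p under 0.05, beside 18.6% of all genes. Both were IL17 family receptors, and they differed in opposite directions. IL17RA, IL17RC, IL17RD and IL17REL had no such p. IL17RB, which binds IL25, had 7.97, 8.09, 8.13, 8.22 and 8.55 on the LPS+RSV arrays, against 8.59, 8.52, 8.30, 8.40 and 8.35 on the LPS arrays. All but 1 of the LPS+RSV arrays lay below every LPS array, and replicate 5 lay among the highest. The difference was -0.24 ± 0.10 (SE, adjusted p = 0.237, limma), -0.18 without LPS+RSV replicate 1 and -0.16 without LPS replicates 1 and 2, with an unadjusted p above 0.05 in both cases. IL17RE, the receptor of the epithelial cytokine IL17C, had 7.79, 7.68, 7.98, 7.87 and 7.80 on the LPS+RSV arrays, against 7.71, 7.63, 7.58, 7.65 and 7.66 on the LPS arrays. Only LPS+RSV replicate 2 and LPS replicate 1 overlapped. The difference was 0.18 ± 0.07 (SE, adjusted p = 0.188, limma); IL17RE differed by -0.13 ± 0.07 between LPS and control. IL17RA, the chain that these receptors share, differed by 0.01 ± 0.08 between LPS+RSV and LPS and by 0.06 ± 0.08 between LPS and control.

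TLR2, the receptor of bacterial lipoproteins, had 8.63, 8.03, 8.52, 8.54 and 8.85 on the LPS+RSV arrays, 8.33, 8.30, 8.55, 8.40 and 8.36 on the LPS arrays, and 8.04, 8.26, 8.42, 8.70 and 8.70 on the control arrays. The LPS arrays lay within the range of both other groups. It differed by 0.13 ± 0.14 between LPS+RSV and LPS (0.08 without LPS replicates 1 and 2) and by -0.04 ± 0.14 between LPS and control. TLR5, the flagellin receptor, differed by 0.05 ± 0.09 between LPS+RSV and LPS and by -0.04 ± 0.09 between LPS and control. TLR3, which senses double-stranded RNA, lay below the filter on all arrays, with means of 3.77 in LPS+RSV, 3.71 in LPS and 3.69 in control. IL1RAP, the accessory chain of the interleukin-1 receptor, differed by -0.16 ± 0.08 between LPS+RSV and control (adjusted p = 0.483, limma).

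Of 9 tested adaptors and kinases, 3 (33.3%) had an unadjusted p under 0.05 for LPS against control, beside 7.88% of all genes. IRAK1, the third beside TRAF3 and TRAF4, did not keep such a p without LPS replicates 1 and 2. The class is small and was not tested as a set. TRAF3, an adaptor of TNF family and Toll-like receptors that also restrains the alternative route to NF-κB, had 7.37, 7.27, 7.12, 7.29 and 7.02 on the LPS arrays, against 6.96, 6.92, 6.97, 7.02 and 6.85 on the control arrays. All LPS arrays but replicate 5 lay above all control arrays. The difference was 0.27 ± 0.07 (SE, adjusted p = 0.302, limma), with an interval of 0.12 to 0.42. The LPS+RSV arrays had 7.0, 7.02, 7.12, 6.97 and 6.96, within reach of LPS replicates 3 and 5. The difference from LPS was -0.20 ± 0.07 (SE, adjusted p = 0.173, limma), and that from control was 0.07 ± 0.07. Without LPS replicates 1 and 2, LPS differed from control by 0.20 and LPS+RSV from LPS by -0.13 (adjusted p = 0.854 and 0.441, limma).

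TRAF4, a TRAF adaptor of epithelial cells, had 7.33, 7.21, 7.53, 7.51 and 7.49 on the LPS arrays, against 7.14, 7.29, 7.07, 7.23 and 7.33 on the control arrays. LPS replicates 3, 4 and 5 lay above all control arrays. The difference was 0.20 ± 0.07 (SE, adjusted p = 0.497, limma). The LPS+RSV arrays lay close together, at 7.36, 7.26, 7.33, 7.30 and 7.34, and differed from LPS by -0.10 ± 0.07, or by -0.19 without LPS replicates 1 and 2. IRAK1, the kinase that relays Toll-like and interleukin-1 receptor signals, had 7.48, 7.24, 7.04, 7.06 and 7.03 on the LPS arrays, against 7.06, 6.99, 7.0, 6.79 and 6.86 on the control arrays. LPS replicates 1 and 2 were the 2 highest of these. The difference was 0.23 ± 0.09 (SE, adjusted p = 0.534, limma), and 0.10 without them. With resveratrol IRAK1 differed from LPS by -0.12 ± 0.09, and by 0.01 without those LPS arrays.

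TRAF5, an adaptor of TNF family receptors, had 6.20, 7.02, 7.08, 7.0 and 6.82 on the LPS+RSV arrays, against 7.03, 7.0, 7.17, 7.07 and 7.21 on the LPS arrays. Replicate 1 of LPS+RSV lay far below the rest. The difference was -0.27 ± 0.14 (SE, adjusted p = 0.314, limma), and -0.12 without that array. IRAK1BP1, which encodes a protein that binds IRAK1, differed by -0.33 ± 0.15 between LPS+RSV and control, and by -0.17 without the same array. TRAF3IP1, a TRAF3 partner with a role in cilia, differed by -0.01 ± 0.06 between LPS and control and by -0.00 ± 0.06 between LPS+RSV and LPS.

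The NF-κB genes were measured on all arrays. RELA, the main activating subunit, had 7.83, 7.75, 7.67, 7.57 and 7.70 on the LPS+RSV arrays, 7.78, 7.53, 7.61, 7.63 and 7.63 on the LPS arrays, and 7.48, 7.46, 7.56, 7.53 and 7.66 on the control arrays. LPS+RSV replicates 1, 2, 3 and 5 lay above every control array. Its difference was 0.17 ± 0.07 between LPS+RSV and control (SE, adjusted p = 0.464, limma), 0.07 ± 0.07 between LPS+RSV and LPS, and 0.10 ± 0.07 between LPS and control. Without LPS+RSV replicate 1 the difference from control was 0.14, with an unadjusted p above 0.05. REL, a subunit best known from lymphoid cells, had 7.75, 8.60, 8.65, 8.54 and 8.48 on the LPS+RSV arrays, against 8.80, 8.78, 8.63, 8.75 and 8.67 on the control arrays. All LPS+RSV arrays but replicate 3 lay below all control arrays, and replicate 1 lay far below. The difference was -0.32 ± 0.14 (SE, adjusted p = 0.464, limma), and -0.16 without that replicate, when its unadjusted p was above 0.05.

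NFKB1, the gene of a subunit precursor, had 7.60, 7.83, 7.81, 7.58 and 7.65 on the LPS+RSV arrays, 7.73, 7.65, 7.64, 7.66 and 7.72 on the LPS arrays, and 7.82, 7.88, 7.69, 7.42 and 7.46 on the control arrays. The LPS arrays lay inside the range of both other groups. It differed by 0.01 ± 0.09 between LPS+RSV and LPS and by 0.03 ± 0.09 between LPS and control. NFKB2 and RELB, the partners of the alternative route, differed by -0.12 ± 0.09 and -0.03 ± 0.09 between LPS+RSV and LPS, and by 0.07 ± 0.09 and 0.10 ± 0.09 between LPS and control. NFKB2 differed by -0.19 between LPS+RSV and LPS without LPS+RSV replicate 1, at an unadjusted p under 0.05, and RELB by 0.04 between LPS and control without LPS replicates 1 and 2. All 5 subunit genes had intervals within 0.5 log2 units of 0 for LPS against control.

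IL18BP, which neutralises IL18, and IL36RN, an antagonist of interleukin-36 receptors, were the tested antagonists. IL18BP differed by -0.23 between LPS and control and by -0.25 between LPS+RSV and control, and IL36RN by -0.18 and -0.20. The IL18BP values were -0.06 for LPS against control without LPS replicates 1 and 2, and -0.13 for LPS+RSV against control without LPS+RSV replicate 1. The lowest adjusted p of the pair in limma was 0.727 for LPS against control and 0.483 for LPS+RSV against control. Of the noncoding transcripts, IL21R-AS1 had 5.56, 5.39, 5.5, 5.44 and 5.34 on the LPS+RSV arrays, against 4.84, 5.23, 5.37, 5.26 and 4.87 on the control arrays. Only LPS+RSV replicate 5 and control replicate 3 overlapped. The difference was 0.33 ± 0.10 (SE, adjusted p = 0.464, limma), the largest positive difference of a member in that comparison. TNFRSF14-AS1 and TRAF3IP2-AS1 differed by 0.20 ± 0.14 and -0.08 ± 0.08 between LPS+RSV and LPS. The TNFRSF14-AS1 difference was 0.10 without LPS+RSV replicate 1 and -0.01 with the cell cycle score as a covariate. IL4I1 differed by 0.02 ± 0.09 between LPS and control.

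Ligands, receptors and adaptors were then set side by side. For LPS against control the median log2 difference was 0.04 over 36 tested ligands, 0.02 over 15 receptors, 0.10 over 9 adaptors and kinases and 0.05 over 6 NF-κB genes, beside 0.01 over all genes. Of the ligands 25 were above 0 (69.4%), of the receptors 8 (53.3%) and of the adaptors and kinases 6 (66.7%), where 52.7% of all genes were. The classes are described without a test, since genes are not replicates.

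For LPS+RSV against LPS the medians were -0.00 for ligands, 0.02 for receptors, -0.06 for adaptors and kinases and -0.01 for NF-κB genes, against 0.01 for all genes. All 9 adaptors and kinases lay below 0, at differences of -0.27 to -0.00, where 52.1% of all genes lay above it. They include the partners TRAF3IP1, TRAF3IP3 and IRAK1BP1, which are neither TRAF adaptors nor IRAK kinases. Without LPS replicates 1 and 2, 2 of the 9 (IRAK1 and TRAF3IP1) lay above 0, and without LPS+RSV replicate 1, 3 did (IRAK1BP1, TRAF3IP1 and TRAF3IP3). Ligands spanned -0.43 to 0.30 and receptors -0.24 to 0.18. For LPS+RSV against control the medians were 0.05 for ligands, 0.04 for receptors, -0.01 for adaptors and kinases and 0.03 for NF-κB genes, beside 0.02 over all genes. Of the 36 ligands 27 lay above 0 in that comparison (75%), where 55.8% of all genes did. Over all members of a class, tested or not, the medians for LPS against control were 0.03 for 62 ligands, 0.02 for 30 receptors and 0.06 for 10 adaptors and kinases.

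The mean deviation of the adaptors and kinases from their overall level ranged from -0.15 to 0.04 on the LPS+RSV arrays, from 0.02 to 0.11 on the LPS arrays and from -0.07 to 0.06 on the control arrays. The lowest value was that of LPS+RSV replicate 1. For ligands it lay between -0.05 and 0.15 in LPS+RSV, -0.01 and 0.08 in LPS, and -0.12 and 0.03 in control. For receptors it lay between -0.09 and 0.08 in LPS+RSV, -0.09 and 0.11 in LPS, and -0.09 and 0.10 in control. The groups overlapped in each class.

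**Figure D3:**
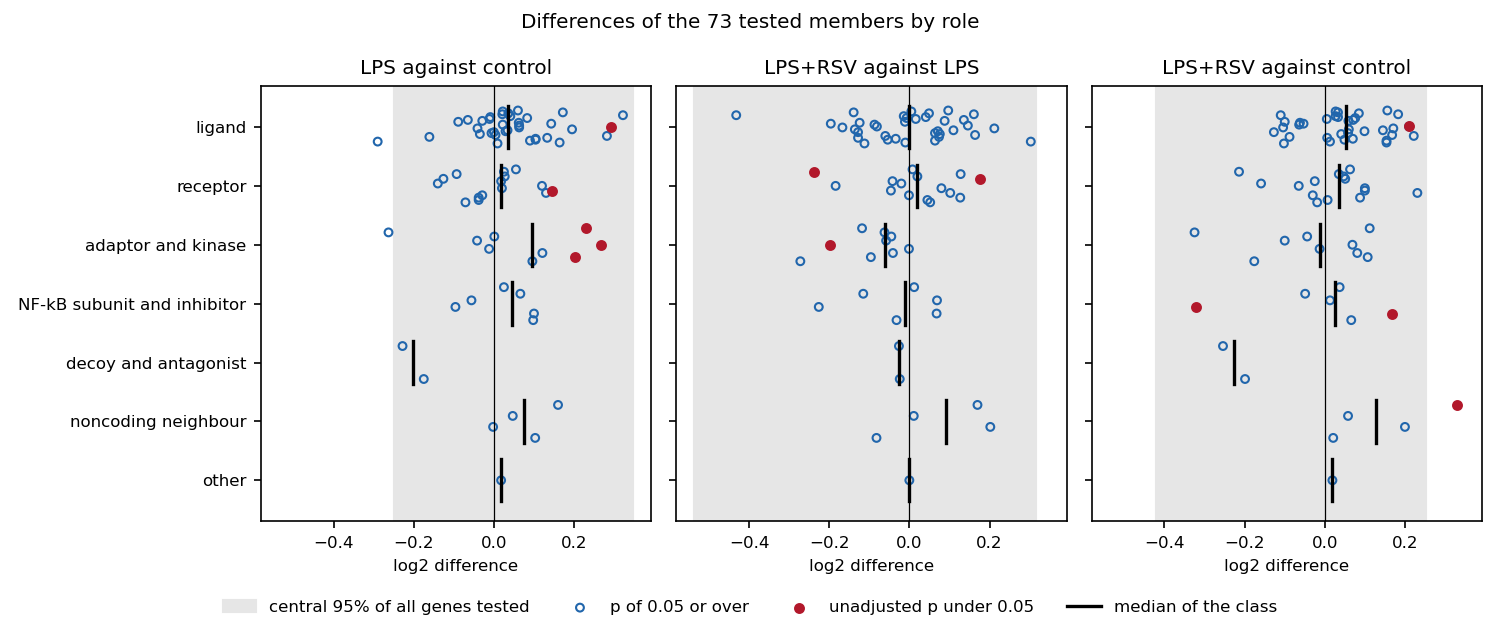
log2 difference of the 73 tested members by role in the 3 comparisons. Open points had an unadjusted p of 0.05 or more and filled points less; bars are class medians, and the grey band holds the central 95% of all genes tested, from -0.25 to 0.35 for LPS against control and from -0.54 to 0.32 for LPS+RSV against LPS.

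Arrays of the same group differed in the RNA level of cell cycle genes, and some members varied along with that level. Proliferation itself was not measured. A cell cycle score, the mean log2 deviation of 32 genes of DNA replication and mitosis, ranged from -0.86 to 0.44 on the LPS+RSV arrays, from -0.02 to 0.99 on the LPS arrays and from -0.99 to 0.45 on the control arrays. With the group means kept in the model, 10 of 73 members (13.7%) had a slope on the score at an adjusted p under 0.05 in limma: 3 rose with it and 7 fell. The background was higher, 21.9% of genes outside the score, with 12.8% rising and 9.1% falling. This relation was examined after the data had been seen, and IL34, IL6R, IL17D and CCL15-CCL14 are named because of their slopes.

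IL32, an intracellular inducer of other cytokines whose promoter match is shown above, fell by 0.57 ± 0.06 log2 units per unit of score (adjusted p = 6.10e-06, limma). Its values were 6.87, 6.23, 6.70, 6.93 and 7.02 on the LPS+RSV arrays, 6.76, 6.80, 6.94, 6.47 and 6.46 on the LPS arrays, and 6.36, 6.13, 6.55, 6.86 and 7.07 on the control arrays. In each group the array or arrays of highest score had the lowest IL32. IL32 differed by 0.09 ± 0.18 between LPS and control in the model of groups alone, and by 0.40 with the score as a covariate (adjusted p = 0.0339, limma), the only member called in any comparison under that or any other setting tried.

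IL6R, the receptor chain that binds interleukin-6, had 8.51, 7.43, 8.0, 8.30 and 8.43 on the LPS+RSV arrays, 8.32, 8.57, 8.25, 7.68 and 7.33 on the LPS arrays, and 7.56, 7.46, 7.93, 8.26 and 8.30 on the control arrays. It fell by 0.78 ± 0.10 per unit of score (adjusted p = 3.40e-05, limma). IL34, a ligand of the macrophage growth factor receptor CSF1R, fell by 0.56 ± 0.09, and CCL15-CCL14, a readthrough transcript over a pair of chemokine genes, by 0.52 ± 0.11. TLR2 fell by 0.38 ± 0.08, TNFRSF14-AS1 by 0.30 ± 0.09 and IL17D, an IL17 relative, by 0.22 ± 0.07.

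CCL2 rose by 0.85 ± 0.14 per unit of score (adjusted p = 0.000445, limma), the steepest slope of a member. Its 2 lowest arrays, LPS+RSV replicate 5 and control replicate 5, were those of lowest score in their groups. On both, CCL2 lay below the filter level of the array, 5.08, and it exceeded that level on 12 of the 15 arrays. NFKB1 rose by 0.20 ± 0.06 and IRAK1BP1 by 0.33 ± 0.11. The slopes of IL32, IL6R, IL34, CCL2 and CCL15-CCL14 passed in all 24 alternatives tried, that of TLR2 in 22, NFKB1 and TNFRSF14-AS1 in 16, IL17D in 14 and IRAK1BP1 in 8. By class, 5 of 36 ligands, 2 of 15 receptors, 1 of 9 adaptors and kinases and 1 of 6 NF-κB genes passed. For TRAF3, TRAF4 and IRAK1 the difference between LPS and control was 0.27, 0.21 and 0.23 with the score as a covariate. The covariate moved other members: between LPS+RSV and LPS, CCL2 differed by 0.17, IL32 by -0.34 (adjusted p = 0.109, limma), NFKB1 by 0.15, TLR2 by -0.14 and TRAF5 by -0.10, and CCL2 differed by -0.15 between LPS and control.

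**Figure D4:**
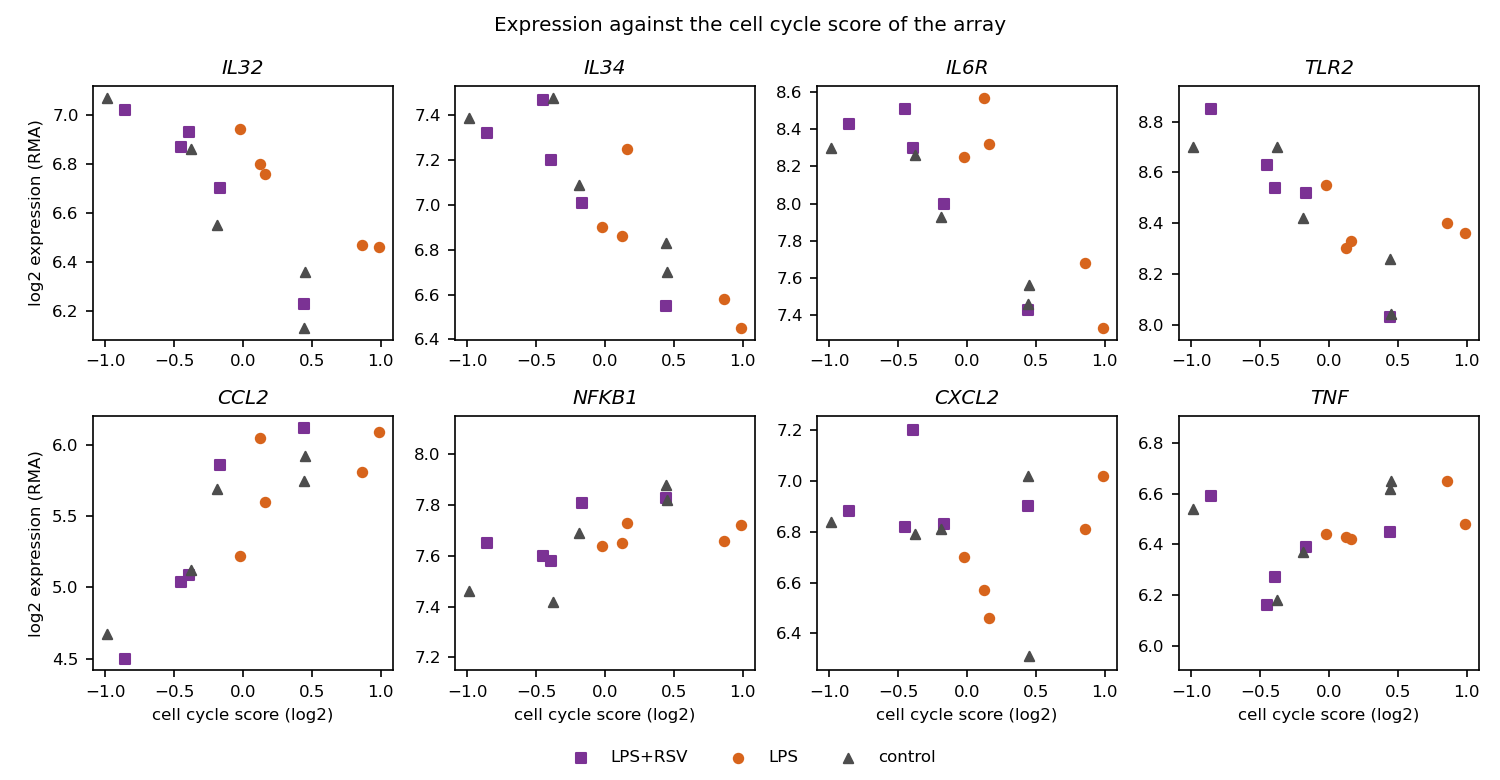
log2 expression of 8 members against the cell cycle score of each of the 15 arrays. IL32, IL34, IL6R and TLR2 are lower on arrays of high score and CCL2 is higher, while CXCL2 and TNF had no called slope.

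Group accounted for a median of 13.5% of the variance of the tested members, and 18.3% of that of all genes. Of the variance within groups, a median of 14.2% lay along the cell cycle score for members and 16% for all genes. These are raw shares, not corrected for the share that groups or a score take up when they have no effect. They therefore do not measure how much treatment explains. Over all arrays the range of a tested member was largest for CCL2 and lowest for TRAF3IP1, at 0.24, and 9 tested members ranged over more than 1 log2 unit.

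Genes of the same pathways under other names gave counts of the same kind. Of 103 listed, 75 were named here and 62 were tested, and 0 passed in any comparison in limma. At an unadjusted p under 0.05, 3 were higher and 0 lower for LPS against control, 3 and 5 for LPS+RSV against LPS, and 0 and 5 for LPS+RSV against control. Over all genes such a p was held by 7.88%, 18.6% and 10.5%. Of 11 tested genes listed as NF-κB targets, 9 were above 0 for LPS against control, with a median of 0.055. For LPS+RSV against LPS 5 were above 0, with a median of -0.018. In both comparisons BCL2L1 had the lowest p of that list. BCL2L1, an NF-κB target that protects cells from apoptosis, averaged 9.56 ± 0.11 in LPS and 9.19 ± 0.05 in control (SD, n = 5 each), a difference of 0.36 ± 0.07 (SE, adjusted p = 0.157, limma). With resveratrol it averaged 9.25 ± 0.13, a difference from LPS of -0.30 ± 0.07 (adjusted p = 0.103, limma).

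Of 7 tested genes of the IκB kinase and its regulators, 2 had a lower LPS+RSV level at an unadjusted p under 0.05 in the comparison with LPS and 0 a higher one, with a median of -0.02 and 3 above 0. Of 10 of Toll-like and interleukin-1 receptor signalling, 2 were lower and 1 higher, with a median of 0.04 and 7 above 0. The shares of all genes were 10.5% lower and 8.08% higher. CHUK, a catalytic subunit of the IκB kinase, averaged 7.57 ± 0.16 in LPS+RSV and 7.87 ± 0.12 in LPS, a difference of -0.30 ± 0.08 (SE, adjusted p = 0.127, limma, n = 5 each). TAB3 and MAP3K7, partners in the complex that activates that kinase, differed by -0.38 ± 0.11 and -0.30 ± 0.11, and TBK1, a related kinase of the interferon route, by -0.49 ± 0.19. The TBK1 values spread with an SD of 0.57 in LPS+RSV and 0.15 in LPS. Without LPS+RSV replicate 1, MAP3K7 differed by -0.19 and TBK1 by -0.23. TAB1, of the same complex, and CFB, a complement factor on the list of NF-κB targets, were higher in LPS+RSV than in LPS by 0.23 ± 0.09 and 0.44 ± 0.18. Between LPS and control CFB differed by -0.17 ± 0.18, so both its differences had the opposite sign to those of BCL2L1. TAB1 differed by 0.11 without LPS replicates 1 and 2, and CFB by 0.11 with the cell cycle score as a covariate. RBCK1, a ubiquitin ligase subunit of the TNF receptor complex, and PIGR, the epithelial immunoglobulin transporter, differed by 0.18 ± 0.08 and 0.22 ± 0.10 between LPS and control, and RBCK1 by 0.07 without LPS replicates 1 and 2. All of these missed an adjusted p of 0.05 in limma.

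Of the 10 tested genes of JAK, STAT and SOCS proteins, which carry cytokine signals inward, 2 were above 0 for LPS against control, with a median of -0.04, and 8 for LPS+RSV against LPS, with a median of 0.09. The 9 tested chemokine receptors had a median of -0.00 for LPS against control and 0.07 for LPS+RSV against LPS. All 6 tested TNF superfamily genes under other names lay below 0 for LPS against control, with a median of -0.05, and above 0 for LPS+RSV against LPS, with a median of 0.07. These 2 comparisons share the LPS arrays, and 52.7% and 52.1% of all genes lay above 0 in them. In neither did a gene of the JAK, STAT and SOCS list or the TNF superfamily list have an unadjusted p under 0.05.

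Markers of epithelial differentiation and of leukocytes were read in the same fit. KRT20, a keratin of mature enterocytes, differed by 1.16 ± 0.34 between LPS and control and by -1.02 ± 0.34 between LPS+RSV and LPS (adjusted p = 0.351 and 0.166, limma). Without LPS replicates 1 and 2 the KRT20 differences were 0.50 and -0.36. With the cell cycle score as a covariate they were 1.53 and -1.49 (adjusted p = 0.0408 and 0.0796, limma), and the first passed in that setting. SI, the brush border sucrase-isomaltase, differed by -0.42 ± 0.18 between LPS and control, and by -0.14 with the score as a covariate. The 5 tested leukocyte markers had medians of 0.04 for LPS against control and -0.02 for LPS+RSV against LPS. The part of these differences in the values of the members was not tested.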

How the data were processed

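Whole-transcript arrays of 15 Caco-2 samples were analysed from 1 deposited table of 53617 rows. The deposited values were log2 expression per probe set, made with RMA per the submitters' processing notes; its version and the genome build were not given in the sources used here. Of the rows, 16098 had a gene symbol from the platform annotation and 37519 were unnamed here; all 119 members matched a RefSeq gene by Entrez ID. Groups came from the labels. Pairs of arrays correlated from 0.922 to 0.994 over the tested genes, and the number of arrays limits the precision.

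The members, role classes and gene lists were chosen with earlier results of these data known. Noncoding transcripts were kept as a class of their own, apart from the receptors and adaptors they are named after. Differences came from limma 3.58.1, run under R 4.3.3 on all 15 arrays and 11804 genes with a mean for each of the 3 groups (lmFit, then eBayes), with Benjamini-Hochberg adjustment over all genes of a comparison and 95% intervals from the same model. Members below the filter have values and no test. The text names the 2 members of lowest p and the 3 brightest of each class, both tested antagonists, and 45 genes fixed by name of which 18 were tested. The slope on the cell cycle score was fitted over 11772 genes, leaving out the score's own, after the data had been seen; the members it names outside this rule were chosen after their values were seen. Alternatives covered the filter, the row per symbol, normalization, moderation, array weights, the groups in the fit, the replicate number as a block, the score as a covariate and arrays left out. For pathway genes, antagonists and markers the last 2 of these were added after the data had been seen. The scripts were tested on simulated data.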

Additional observations from a re-analysis of the deposited data

Results flagged for a closer look

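For each described member, the highest or lowest array of a group was flagged when its gap to the nearest other array passed Dixon's limit for 5 values. This happened in 9 of 114 groups, where chance flags about 1 in 20 groups. LPS+RSV replicate 1 was flagged 3 times: REL was 7.75 there and 8.48 to 8.65 on the other LPS+RSV arrays, TRAF5 was 6.20 against 6.82 to 7.08, and IRAK1 was 7.15 against 7.01 to 7.04. CXCL2 was 7.20 in LPS+RSV replicate 4 against 6.82 to 6.90, and IL4R was 7.98 in LPS+RSV replicate 2 against 7.93 to 7.94. Within LPS, TNF was 6.65 in replicate 4 against 6.42 to 6.48, CXCL3 was 4.31 in replicate 1 against 4.47 to 4.51, and TNFRSF14-AS1 was 6.77 in replicate 3 against 6.18 to 6.31. In control, CCL4 was 6.08 in replicate 5 against 6.28 to 6.30.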

How the results depend on the processing

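The count of members called stayed at 0 in each comparison under all alternatives but 1, and with each array left out in turn it ranged from 0 to 0. With the cell cycle score as a covariate 1 member, IL32, was called for LPS against control, when 68 of 11804 genes were called. In that setting 12 of 73 members had an unadjusted p under 0.05, beside 15.6% of all genes. That covariate also moved class medians: for LPS against control to 0.034 for adaptors and kinases and -0.011 for NF-κB genes, and for LPS+RSV against LPS to -0.051 for receptors. The NF-κB median for LPS+RSV against control, 0.025 as reported, was -0.019 with array weights and -0.018 to 0.038 with 1 array left out, and for LPS against control, 0.046 as reported, it was 0.02 to 0.077. The number of members with a slope on the score was 5 without the control group, where 957 of 11772 genes (8.13%) passed against 21.9% over all groups, and 7 to 14 with 1 array left out. With the replicate number as a block, 0 members were called in each comparison, and the count over all genes was 6 for LPS against control, 3 for LPS+RSV against LPS and 0 for LPS+RSV against control, beside 3, 5 and 0 without it. The labels do not say what the numbers share. Deviations from group means of same-numbered arrays correlated from -0.54 to 0.12 between LPS and control, from -0.37 to 0.10 between LPS+RSV and LPS, and from -0.44 to 0.71 between LPS+RSV and control, where 4 of 5 were above 0. In these comparisons 1, 0 and 4 of 10 arrays correlated best with their own number, a hint from the data and not the design, and the numbers were not used as pairs. Of 2631 alternative values of described members, 122 had the other sign, and none of these was called in either fit. The cause of these shifts was not tested. Depth is not recorded for arrays, and 5 arrays per group leave a median SE of 0.10 log2 units.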
